A study of Mus musculus with 6 samples.

Results

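Genes of the neural tube, 42 in all, were followed in the tail end of mouse embryos that lack a normal Dll3 gene and of wild-type embryos. The list was sorted by the known role of each gene into 18 progenitor genes, 10 proneural and early differentiation genes and 14 neuron genes. A member was measured where the array annotation assigned at least 1 probe set to that gene alone, and its value was the mean log2 ratio of those probe sets. This gave 39 of the 42 genes, read by 66 probe sets, out of 12393 genes in the whole series. Dbx1, Dbx2 and Nhlh2 were not analysed here. The 39 were 16 progenitor, 9 proneural and 14 neuron genes.

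The mutant embryos were homozygous for the tm1Rbe allele of Dll3, which the labels also call Dll3neo/neo, and the control embryos were wild type at Dll3. Both were labelled C57BL/6 and were taken at 9.5 days post coitum. Each genotype had 3 pools, which the series design text calls biological replicates, and each pool was read on 1 Affymetrix MOE430A array. The embryos were cut at the border between the presomitic mesoderm and the newest somite, with the allantois removed, and the tissue behind the cut held all 3 germ layers. The posterior neural tube was therefore sampled together with the mesoderm. The sources used here give neither the number of embryos in a pool nor what the tm1Rbe allele removes.

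The neural tube grows at its tail end from progenitors that carry Sox genes of the SoxB1 group, and further forward these cells take on dorsal or ventral identities marked by genes such as Msx1, Pax6, Irx3 and Olig2. Proneural transcription factors of the bHLH family, such as Neurog2, push single progenitors to become neurons and switch on Delta ligands. Delta activates Notch in the neighbouring cells, where Hes repressors hold the proneural genes down, so loss of Notch signalling is known to release early neuron formation. Dll3 is a divergent Delta protein that works mainly inside the cell and is best known for its part in somite formation.

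The deposited values are ratios of each reading to a value of its own probe set, and the file carries no absolute level. For 92.8% of 22626 probe sets the median of the 6 ratios was within 0.002 of 1, so that 1 is the middle of the readings, and for the other 1640, among them 7 of the 66 member probe sets, the median was lower. Whether a transcript was detected, and whether the dissected tissue expressed the markers of its label, cannot be read from such ratios. Wild-type pool 3 stood apart in its spread: the SD of log2 ratios over all probe sets was 0.303 there, against 0.197 to 0.234 in the mutant pools and 0.214 and 0.166 in wild-type pools 1 and 2. It held the highest value of 34.4% of all genes and the lowest value of 32.5%. In mutant pool 1, heart muscle genes had a median log2 ratio of 1.88, measured against the gene's own median over the pools, whereas the other pools lay between -0.22 and 0.01.

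Dll3 itself fell in the mutant. Its ratio was 0.480, 0.476 and 0.537 in mutant pools 1, 2 and 3, against 1.46, 1.63 and 2.01 in wild-type pools 1, 2 and 3. The log2 difference, mutant minus wild type, was -1.76 (SE 0.13, limma adjusted p = 0.00132 over all genes). It was the 1 gene of 12393 called at an adjusted p under 0.05, a share of 0.00807%. Whether its probe set reads the part of Dll3 that the allele changes was not determined here.

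None of the 39 neural genes passed this test, and the adjusted p rounded to 1 for each. In limma 1 member, Zic1, had an unadjusted p under 0.05, against 1.28% of all genes. By sign 20 members had a higher and 19 a lower mutant mean, or 51.3% higher, where 51.1% of all genes were higher. The median log2 difference over the members was 0.0036, beside 0.0028 over all genes, and the median size without regard to sign was 0.07 in both. For 3 members, Zic1, Olig2 and Stmn2, the mutant pools all lay on the same side of the wild-type pools without overlap, against 4.95% of all genes. In bulk tissue, fewer cells of a type and less RNA per cell cannot be told apart.

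The intervals bound the differences in the deposited ratios. Whether a transcript was detected is unknown, so they do not bound the change of a transcript that its probe sets may not have detected. For all 39 members the 95% interval of the difference from limma, not adjusted for the number of genes, lay within a 2-fold change in either direction. For 37 it lay within a 1.5-fold change. The exceptions were Sox2 and Gbx2, whose intervals reached below a 1.5-fold lower level in the mutant, to log2 differences of -0.67 and -0.61. These intervals assume that pools of each gene vary as the fit estimates, and how the authors' summarisation scales a fold is unknown.

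**Figure D1:**
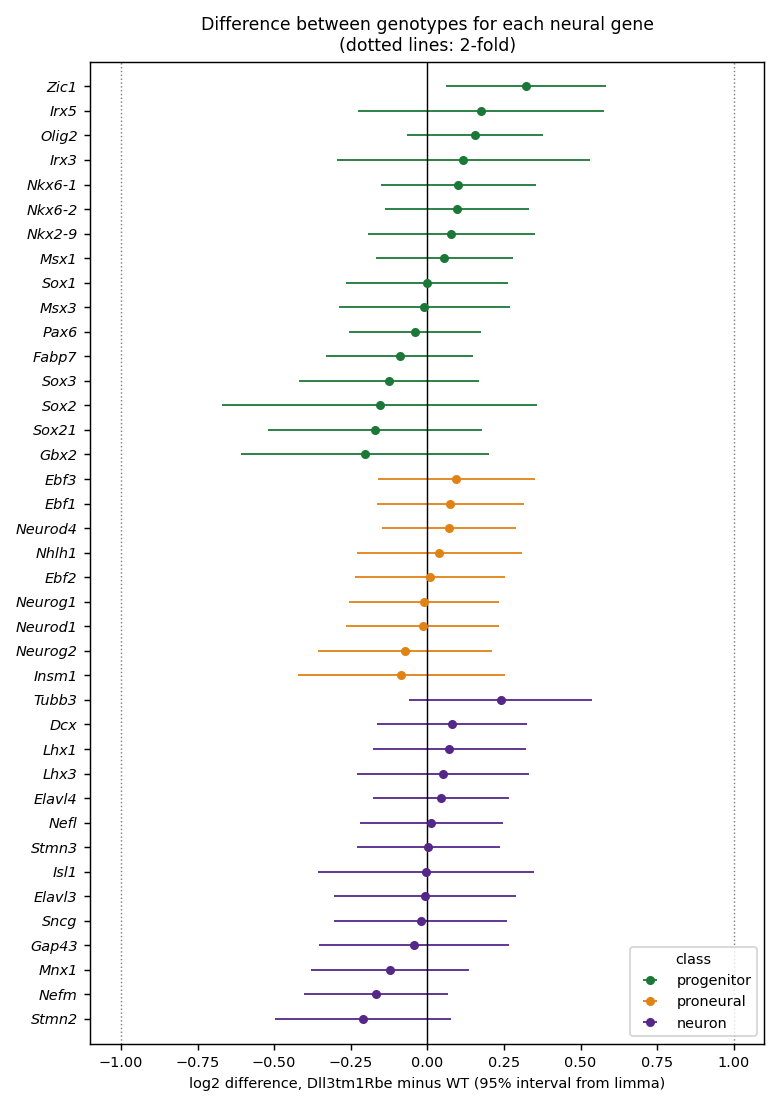
Log2 difference (horizontal axis, Dll3tm1Rbe minus wild type) of each of the 39 measured neural genes, with its 95% interval from limma, coloured by class, with dotted lines at 2-fold. Zic1 (0.32) is the 1 gene whose interval leaves out 0, and no interval reaches either dotted line.

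Progenitor genes were split evenly, 8 of 16 being higher by sign and 8 lower in mutant pools, and 0 were called. The median log2 difference was 0.03, with a range from -0.20 to 0.32 over the genes. Its sign depended on single pools: leaving out mutant pool 2 gave a median of -0.014, leaving out wild-type pool 1 gave -0.010, and leaving out wild-type pool 3 gave 0.062. Zic1, a zinc finger gene of the dorsal neural tube that is also active in somites, had the largest difference of all members. Its ratio was 1.27, 1.19 and 1.01 in mutant pools 1, 2 and 3, against 0.986, 0.852 and 0.931 in wild-type pools 1, 2 and 3. All mutant pools lay above all wild-type pools, though mutant pool 3 and wild-type pool 1 were close together. The log2 difference was 0.32 (SE 0.12, unadjusted p = 0.0209 and adjusted p = 1 in limma), a 1.25-fold higher level, and it stayed between 0.25 and 0.41 when any 1 pool was left out. Zic1 was read by 1 probe set, so no second reading exists.

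Olig2, which marks the progenitors of motor neurons in the ventral neural tube, had ratios of 1.09, 1.01 and 1.15 in mutant pools 1, 2 and 3. Its wild-type ratios were 0.987, 0.979 and 0.954. The groups did not overlap, but mutant pool 2 came within 0.03 of the highest wild-type pool. The log2 difference was 0.16 (SE 0.10, adjusted p = 1 in limma), and the range over the 6 pools was smaller than that of most genes, at percentile 24.2. Nkx6-1 (log2 difference 0.10), Nkx6-2 (0.10) and Nkx2-9 (0.08), homeobox genes of the ventral neural tube, were higher by sign with overlapping pools. Ventral genes did not all go this way. Nkx2-2 (-0.06) and Shh (-0.07), counted in the floor plate and notochord list, were lower by sign, and 4 of 8 genes of that list were higher.

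The SoxB1 genes, which hold neural progenitors in their undifferentiated state, were set apart by single pools. Sox2 had ratios of 0.951, 1.16 and 0.993 in mutant pools 1, 2 and 3, against 0.852, 1.01 and 1.77 in wild-type pools 1, 2 and 3. Wild-type pool 3 was far above the other 5, and the range of Sox2 over the pools was at percentile 98.8 of all genes. Its log2 difference was -0.16 (SE 0.23) and turned to 0.16 without wild-type pool 3. Sox3 had a log2 difference of -0.13, and -0.02 without wild-type pool 3, where 1 of its probe sets read 1.496 and the other 1.07. Sox1 had -0.0018. Sox21, a SoxB2 gene that promotes exit from the progenitor state, had 1.07, 1.004 and 0.701 in mutant pools 1, 2 and 3, against 0.971, 0.996 and 1.11 in wild-type pools 1, 2 and 3. Only mutant pool 3 was low, and the log2 difference of -0.17 was 0.02 without it.

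The homeobox genes Gbx2, Irx5 and Irx3, like Sox2, were highest in pool 3 among the wild-type pools. Gbx2, known from the posterior neural plate and the midbrain-hindbrain border, had 0.957, 0.906 and 1.04 in mutant pools 1, 2 and 3, against 1.06, 0.857 and 1.51 in wild-type pools 1, 2 and 3. Its log2 difference was -0.20 (SE 0.18), and 0.02 without wild-type pool 3. Irx5, an Iroquois gene of the neural tube, had 1.06, 1.30 and 0.912 in mutant pools 1, 2 and 3, against 0.770, 0.937 and 1.22 in wild-type pools 1, 2 and 3. Its neighbour in the same family, Irx3, followed the same order within each genotype. For both Iroquois genes the spread among the wild-type pools exceeded the difference between genotypes. The log2 differences were 0.17 (SE 0.18) for Irx5 and 0.12 (SE 0.19) for Irx3, and 0.35 and 0.33 without wild-type pool 3.

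Pax6, which patterns the neural tube and is read by 5 probe sets, gave gene ratios of 0.995, 0.991 and 0.935 in mutant pools 1, 2 and 3. The wild-type ratios were 0.996, 1.05 and 0.963. The groups overlapped, and the log2 difference was -0.04 (SE 0.10). Its 5 probe sets ran from -0.14 to 0.04. The remaining progenitor genes were near 0 as well: Msx1 (log2 difference 0.06) and Msx3 (-0.01), homeobox genes of the dorsal neural tube, and Fabp7 (-0.09), a lipid-binding protein of radial glia.

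**Figure D2:**
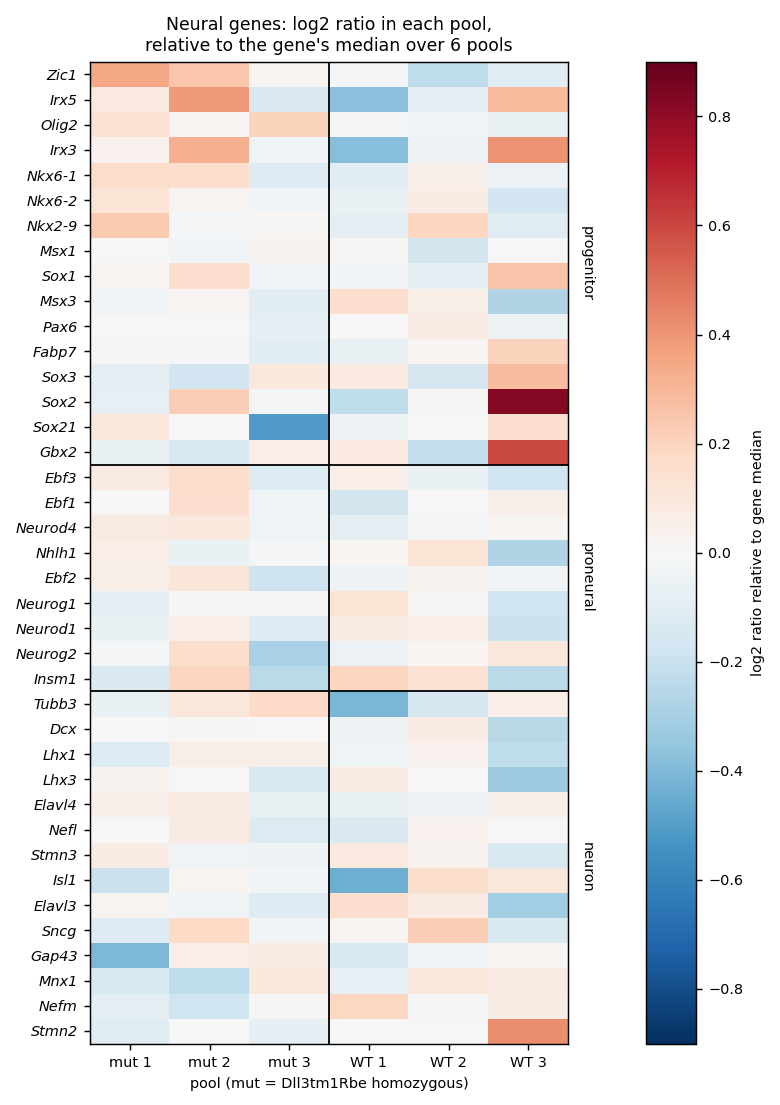
Log2 ratio of each measured neural gene (rows, grouped by class and ordered by difference) in each pool (columns, mutant left and wild type right), relative to the gene's own median over the 6 pools. The darkest cells are Sox2 and Gbx2 in wild-type pool 3 (ratios 1.77 and 1.51), and no block of colour follows the genotype in any class.

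Proneural genes, the smallest class, had the narrowest range of the 3, with log2 differences from -0.08 to 0.09. Their median was 0.0084, with 5 of 9 higher by sign and 0 called. The median size without regard to sign was 0.07, against 0.11 for progenitor and 0.05 for neuron genes. The median log2 difference too changed sign with single pools: leaving out mutant pool 2 gave -0.030, leaving out mutant pool 3 gave 0.047, and leaving out wild-type pool 3 gave -0.033. Neurog2, which starts neuron formation in the neural tube and sensory ganglia, had ratios of 0.989, 1.11 and 0.818 in mutant pools 1, 2 and 3. Its wild-type ratios were 0.966, 1.01 and 1.07. The wild-type pools lay inside the range of the mutant pools, and the log2 difference was -0.07 (SE 0.13). Its paralog Neurog1 had -0.01. Neurod1, a bHLH gene that acts after the neurogenins, had 0.949, 1.03 and 0.909 in mutant pools 1, 2 and 3, against 1.03, 1.03 and 0.864 in wild-type pools 1, 2 and 3. The groups overlapped, and the log2 difference was -0.02 (SE 0.11). Neurod4 had 0.07.

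Insm1, a zinc finger gene switched on in newly forming neurons, had 0.912, 1.14 and 0.841 in mutant pools 1, 2 and 3, against 1.14, 1.09 and 0.842 in wild-type pools 1, 2 and 3. Pool 3 was the lowest in both genotypes, and the log2 difference was -0.08 (SE 0.15). The Ebf genes, which help young neurons leave the progenitor layer, were higher by sign. Ebf3 had 1.02, 1.08 and 0.891 in mutant pools 1, 2 and 3, against 1.01, 0.931 and 0.859 in wild-type pools 1, 2 and 3, with a log2 difference of 0.09 (SE 0.11) and probe sets from -0.03 to 0.20. Ebf1 had 0.796, 0.887 and 0.777 in mutant pools 1, 2 and 3, against 0.713, 0.800 and 0.824 in wild-type pools 1, 2 and 3. Its values lie below 1 because 2 of its 3 probe sets have a median below 1 in the file. The log2 difference was 0.07 (SE 0.11). Ebf2 had 0.0084, with probe sets from -0.05 to 0.10. The bHLH gene Nhlh1, which comes on as neurons are born, had 0.04.

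Across pools, proneural genes were highest in mutant pool 2 for 6 of 9 members, or 66.7%, where that pool was the highest for 15.8% of all genes. Their median log2 ratio, each gene measured against its own median over the pools, was -0.0036, 0.11 and -0.12 in mutant pools 1, 2 and 3, against 0.01, 0.02 and -0.18 in wild-type pools 1, 2 and 3. The spread within each genotype was thus several times the median difference between them. A high mutant pool 2 was not particular to proneural genes. It also had the highest pool median for endothelium genes (0.14) and for somite and dermomyotome genes (0.10).

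Neuron genes were also evenly split, 7 of 14 higher and 7 lower by sign, and 0 were called; the median log2 difference was -0.0011. Tubb3, the neuronal beta-tubulin, had ratios of 0.959, 1.07 and 1.12 in mutant pools 1, 2 and 3. The wild-type ratios were 0.752, 0.899 and 1.04. Wild-type pool 1 was low and the other pools overlapped. The log2 difference was 0.24 (SE 0.13, adjusted p = 1 in limma), the largest among the neuron genes, and it was 0.12 without wild-type pool 1.

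Stmn2, a tubulin-binding protein of growing axons, stood on the other side. It had 0.957, 1.03 and 0.971 in mutant pools 1, 2 and 3, against 1.04, 1.04 and 1.38 in wild-type pools 1, 2 and 3. All mutant values lay below all wild-type values, by under 0.01 at the closest, and wild-type pool 3 was high. The log2 difference was -0.21 (SE 0.13, adjusted p = 1 in limma), and -0.07 without wild-type pool 3. Both probe sets gave -0.21, but by different pools: in wild-type pool 3 they read 1.01 and 1.88. Stmn2 and Tubb3, both early products of any new neuron, thus had differences of opposite sign.

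Nefm, a neurofilament subunit, had 0.941, 0.885 and 1.01 in mutant pools 1, 2 and 3, against 1.14, 0.994 and 1.05 in wild-type pools 1, 2 and 3. Mutant pool 3 lay above wild-type pool 2, and the log2 difference was -0.17 (SE 0.10). Nefl, the light subunit of the same filament, had 0.01. Mnx1, a homeobox gene of motor neurons that is also active in the notochord and the gut, had 0.907, 0.853 and 1.07 in mutant pools 1, 2 and 3, against 0.951, 1.07 and 1.05 in wild-type pools 1, 2 and 3. Its groups overlapped, with a log2 difference of -0.12 (SE 0.12).

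Other transcription factors of newborn motor neurons and interneurons were near 0, with log2 differences of -0.0057 for Isl1, 0.07 for Lhx1 and 0.05 for Lhx3. The RNA-binding proteins Elavl3 (-0.0087) and Elavl4 (0.04) and the microtubule protein Dcx (0.08) likewise had overlapping pools as gene values. Of the 3 Elavl4 probe sets, 1 was higher in the mutant without overlap (0.12). Stmn3 (0.0036), the axonal growth protein gene Gap43 (-0.04) and Sncg (-0.02), which encodes gamma-synuclein, complete the class. Elavl3 had 0.964, 0.930 and 0.875 in mutant pools 1, 2 and 3, against 1.05, 0.999 and 0.761 in wild-type pools 1, 2 and 3, and here wild-type pool 3 was the lowest.

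**Figure D3:**
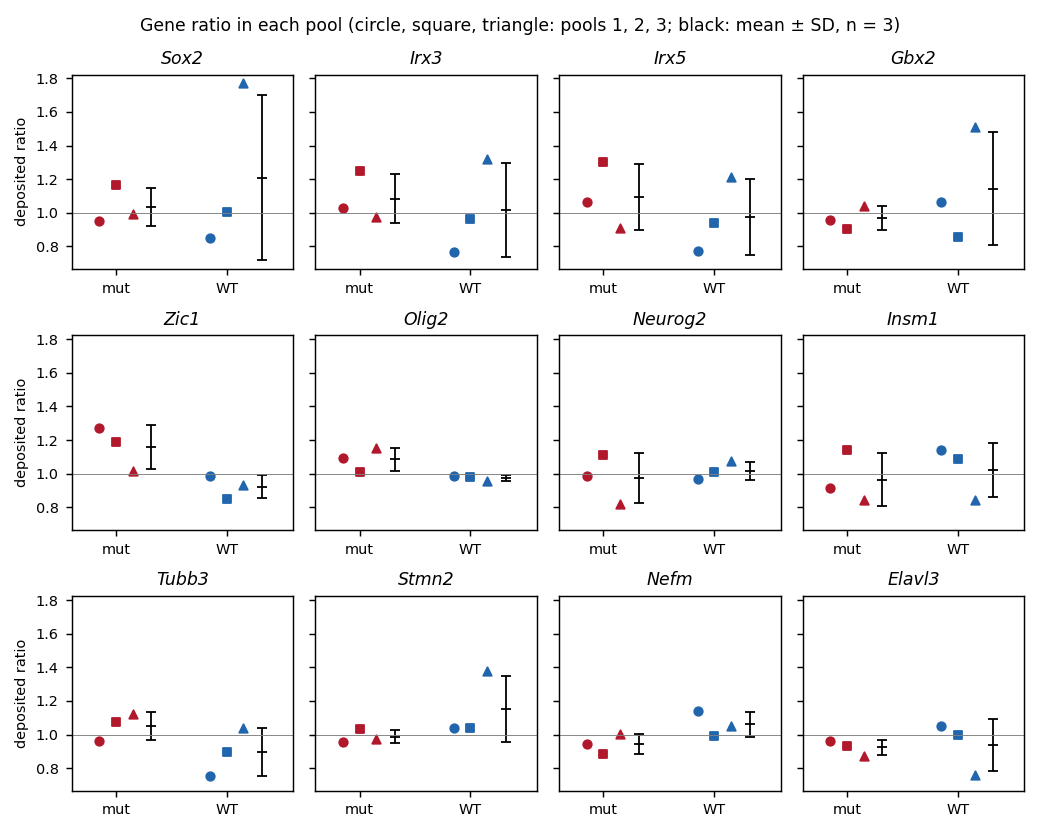
Deposited ratio (vertical axis) of 12 neural genes in each pool, with mutant pools left and wild-type pools right, and mean ± SD (n = 3) in black. Wild-type pool 3 (triangle) is high for Sox2 (1.77), Gbx2 (1.51) and Stmn2 (1.38) and low for Elavl3 (0.761).

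Wild-type pool 3 often held the extreme value of a member. It was the highest pool for 7 of 16 progenitor genes and the lowest for 4, the highest for 0 and the lowest for 4 of 9 proneural genes, and the highest for 1 and the lowest for 6 of 14 neuron genes. The same pool was the highest for 34.4% and the lowest for 32.5% of all genes, against 20.5% and 35.9% of the 39 members. The median of neuron genes minus that of progenitor genes, on the log2 scale, was -0.10, -0.0033 and 2.1e-04 in mutant pools 1, 2 and 3, against -0.00835, 0.05 and -0.06 in wild-type pools 1, 2 and 3. The 2 genotypes overlapped in this measure, as they did in the median of proneural minus progenitor genes (-0.03, 0.09 and -0.10 in mutant pools 1, 2 and 3, against 0.05, 0.03 and -0.25 in wild-type pools 1, 2 and 3).

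Probe sets of the same gene gave a second look at the size of the noise. Of the 17 members with more than 1 probe set, 9 had probe sets of both signs and 8 had probe sets of 1 sign. The 8 were Sox3 and Stmn2, lower in the mutant by all their probe sets, and Neurod4, Ebf1, Elavl4, Dcx, Lhx1 and Lhx3, higher by all theirs. Among the 66 probe sets fitted singly, 0 passed limma over all 22626 probe sets, of which 0.00442% passed, and 1, that of Zic1, had an unadjusted p under 0.05, against 1.16% of all probe sets.

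**Figure D4:**
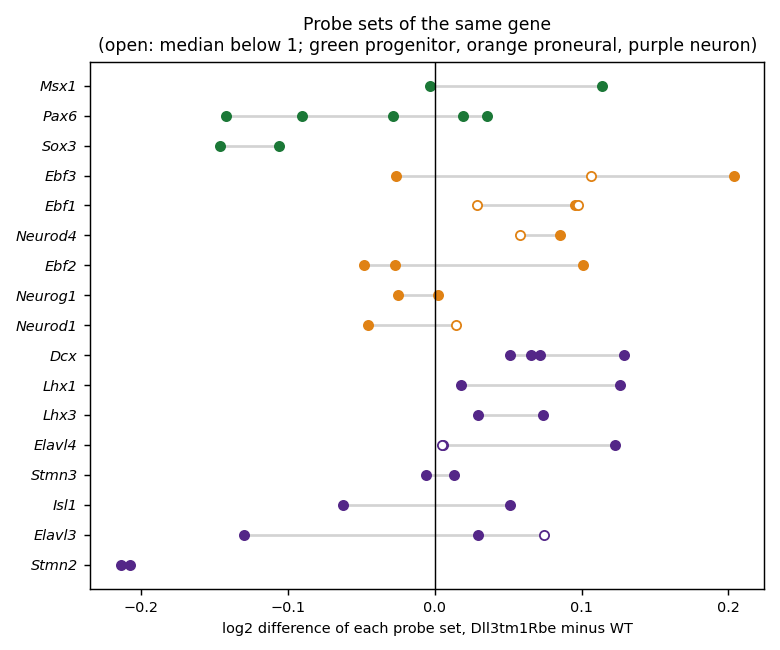
Log2 difference (horizontal axis, Dll3tm1Rbe minus wild type) of each probe set of the 17 genes that have more than 1, with open points for probe sets whose median lies below 1. Probe sets fall on both sides of 0 for 9 genes, and both Stmn2 probe sets lie at -0.21.

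Genes that link Notch to neuron formation were set beside the members. Of 30 measured genes of this list, 18 had a lower and 12 a higher mean in mutant pools, and the median log2 difference was -0.04. Dll3 was the 1 called, and 3 did not overlap, all lower: Dll3, Nrarp and Lfng, where 1.84% of all genes were lower without overlap. Nrarp, a feedback inhibitor of Notch, had 0.837, 0.685 and 0.851 in mutant pools 1, 2 and 3, against 1.12, 1.20 and 1.35 in wild-type pools 1, 2 and 3. Its log2 difference was -0.63 (SE 0.12, unadjusted p = 4.3e-04 and adjusted p = 1 in limma). In limma 3 genes of the list, all lower, had an unadjusted p under 0.05, against 1.28% of all genes in either direction and 59 of 12393 genes lower. These counts include Dll3, the gene that the allele targets. Lfng, which modifies Notch with sugars, had -0.27 (SE 0.11). Nrarp and Lfng are also active in the presomitic mesoderm, which was sampled too, and the part of that tissue in their values was not tested.

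Hes5, the Notch-driven repressor most tied to neural progenitors, had ratios of 1.01, 0.911 and 0.893 in mutant pools 1, 2 and 3. Its wild-type ratios were 0.975, 1.02 and 1.14. Mutant pool 1 lay inside the wild-type range, and the log2 difference was -0.15 (SE 0.11). Hes1, which acts in both the neural tube and the mesoderm, had -0.23 (SE 0.16), and the ligand gene Dll1 had -0.15 (SE 0.14), both with overlapping pools.

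Markers of the other tissues in the cut piece give the setting of these values. Paraxial mesoderm and tail bud genes had a median log2 difference of -0.22, with 11 of 13 lower by sign and 0 called, and the median was -0.084 with array weights. Hes7 (-0.43) and Tbx6 (-0.39) were lower without overlap. The pool medians of the whole list were -0.12, -0.13 and 0.06 in mutant pools 1, 2 and 3, against 0.13, 0 and 0.34 in wild-type pools 1, 2 and 3. Wild-type pool 3 was thus high both for this list and for Sox2, Gbx2 and Irx3, and the part of tail bud tissue in the neural values was not tested. Somite and dermomyotome genes, with 9 of 12 higher by sign, had pool medians of 0.0071, 0.10 and -0.06 in mutant pools 1, 2 and 3, against -0.04, 0.03 and -0.11 in wild-type pools 1, 2 and 3. Zic1 is active in that tissue too, and the part of somite tissue in its value was not tested.

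Neural crest and sensory ganglion genes were higher by sign for 8 of 9 measured, with a median log2 difference of 0.10, pool medians from -0.02 to 0.03 in the mutant and from -0.04 to 0.0047 in the wild type, and 0 called. Sox9, which marks crest and also other tissues, did not overlap (0.12). Floor plate and notochord genes had a median of -8.1e-04, with 4 of 8 higher, and Spon1, a secreted protein of the floor plate, did not overlap (0.27). Roof plate genes had 4 of 6 higher by sign and a median of 0.05. None of these 3 lists had a gene called.

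Among the non-neural lists, surface ectoderm and epithelium genes had 5 of 10 higher by sign, and Cldn6 (-0.18) did not overlap. Gut endoderm genes had 6 of 8 higher, primitive blood genes 5 of 7 and endothelium genes 8 of 10, among which Tie1 (0.31) did not overlap. Heart muscle genes had 10 of 10 higher by sign with 0 called, through mutant pool 1: their median log2 difference of 0.76 was 0.07 without that pool. Myh6 had 2.29, 0.705 and 0.703 in mutant pools 1, 2 and 3, against 0.689, 0.655 and 0.677 in wild-type pools 1, 2 and 3.

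**Figure D5:**
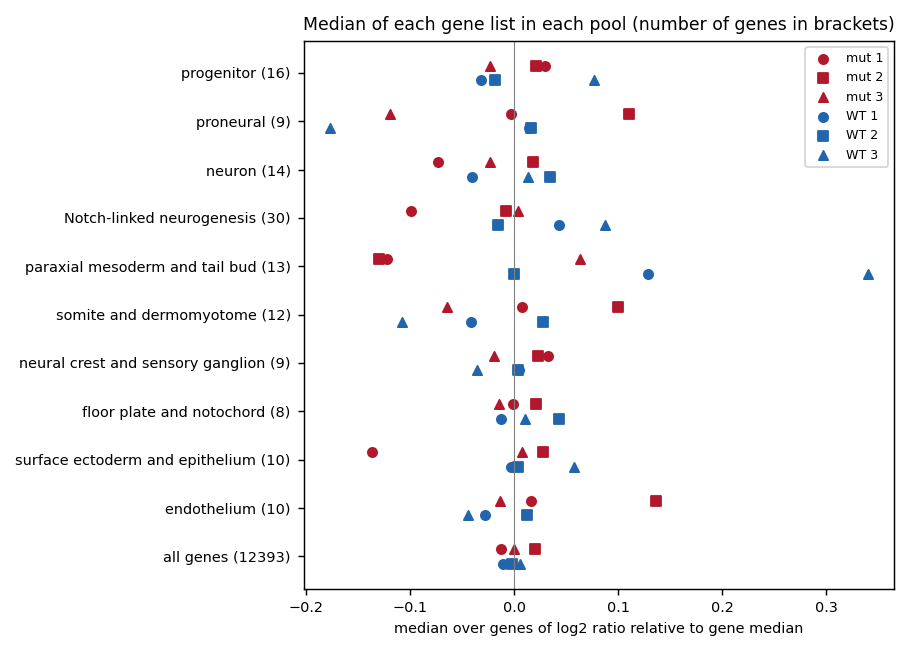
Median log2 ratio of each gene list (horizontal axis, each gene relative to its own median over the 6 pools) in each pool, with mutant pools in red above wild-type pools in blue. The pools of the genotypes overlap for progenitor, proneural and neuron genes, and the paraxial mesoderm and tail bud list reaches 0.34 in wild-type pool 3.

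Promoters were searched for the letters through which Notch and proneural factors are known to act. The window was the 250 bases before the RefSeq start on build GRCm38.p6, given for 31 of the 39 members. The motifs were TGGGAA, the core of the RBPJ site, and the E-boxes CAGATG and CAGCTG, each on both strands and with no overlap among these 3. TGGGAA was found for 5 of the 31 members and 24.1% of all genes with a window, CAGATG for 6 of 31 and 16.3%, and CAGCTG for 4 of 31 and 14.7%. The members Fabp7 and Nhlh1 held both TGGGAA and CAGATG, and their windows are printed because each holds a Notch motif and a proneural motif, with the matches in capitals (CATCTG and TTCCCA are the reverse complements). The Fabp7 window is chr10:57784673-57784922 on the plus strand, and the Nhlh1 window is chr1:172057597-172057846 on the minus strand.
Fabp7: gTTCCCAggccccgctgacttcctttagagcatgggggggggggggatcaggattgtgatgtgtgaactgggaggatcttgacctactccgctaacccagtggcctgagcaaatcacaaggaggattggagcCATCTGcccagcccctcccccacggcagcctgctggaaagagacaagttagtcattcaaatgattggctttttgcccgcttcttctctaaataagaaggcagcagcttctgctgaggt
Nhlh1: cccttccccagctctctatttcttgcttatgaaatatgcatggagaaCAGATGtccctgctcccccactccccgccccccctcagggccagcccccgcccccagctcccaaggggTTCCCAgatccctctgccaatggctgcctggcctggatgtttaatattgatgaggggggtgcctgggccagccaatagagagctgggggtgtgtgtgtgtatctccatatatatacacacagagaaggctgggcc
Fabp7, with these motifs, had ratios of 1.01, 0.993 and 0.930 in mutant pools 1, 2 and 3, against 0.956, 1.02 and 1.16 in wild-type pools 1, 2 and 3. Nhlh1 had 1.04, 0.959 and 0.990 in mutant pools 1, 2 and 3, against 1.01, 1.09 and 0.830 in wild-type pools 1, 2 and 3. The genotypes overlapped for both genes. The windows of Zic1 and Olig2 held 0 matches to these motifs, and Stmn2, also without overlap between genotypes, had no window. The share of all genes that hold both TGGGAA and CAGATG was not counted.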

How the data were processed

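RNA of 6 pools was read on Affymetrix MOE430A arrays. The authors deposited ratios. These appear to divide a probe set's reading by the median of its 6 readings, since the median of the deposited ratios was within 0.002 of 1 for 92.8% of 22626 probe sets. It was lower for 1640, probably through a floor. Per the submitters' processing notes RMA and MAS5 are named without role or order, so it is unknown here how probes were summarised and arrays normalized. All 64 control probe sets were left out. Symbols came from the platform annotation, updated by Entrez ID through RefSeq (20351 of 20380 single-symbol probe sets matched), and log2 ratios were averaged per gene.

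Genotypes were compared with limma 3.58.1 in R 4.3.3 (lmFit, eBayes, genotype only, two-sided), adjusted by Benjamini-Hochberg over 12393 genes, with a threshold of 0.05. The test was also run on simulated data with independent noise and no pool of wider spread. That run therefore does not show how small a difference would be found in these data. Members, lists and classes were chosen with earlier results of these data known, and no list was given a p. Every member is given by its difference. Values in all pools are given for members without overlap, the 4 largest differences of a class and 7 genes chosen by name (Sox2, Pax6, Olig2, Neurog2, Neurod1, Tubb3 and Stmn2), and of the other lists at most 2 genes without overlap are named, besides Notch-linked genes. Pool values of Elavl3, Fabp7 and Nhlh1 in the text and of Irx3 in a plot, and pool medians relative to each gene's own median, were added after the values were seen. So were the differences of Nkx2-2 and Shh, which fall outside these naming rules. Array weights used limma's gene-by-gene method, since the other did not converge. Figures used matplotlib 3.10.9 in Python 3.11.15.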

Additional observations from a re-analysis of the deposited data

How the results depend on the processing

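No neural gene was called under any of 17 alternatives, including each probe set fitted on its own, and Dll3 was called under each, with log2 differences from -2.09 (quantile normalization) to -0.85 (log2 of value plus 1). Of 39 members, 14 kept their sign under the 16 alternatives that gave gene values. Signs changed for 9 members without wild-type pool 3 and for 13 with array weights, where wild-type pool 2 had a weight of 5.26 and pool 3 one of 0.209. The lowest adjusted p of a member was 0.535 (Zic1, array weights). Over all genes the count called was 2 with quantile normalization, with arrays centred on their medians, with probe sets of median not below 1 only and with trend and robust variances, 3 with array weights, and 1 to 2 without single pools. The count at an unadjusted p under 0.05 was 159, but 927 with array weights and 84 to 440 without single pools: 84 without mutant pool 2, 388 without the first wild-type pool and 440 without the third. Same-numbered pools correlated by 0.19, -0.0015 and 0.21 across genes. Mutant pools 1 and 3 correlated best with the wild-type pool of their own number, and mutant pool 2 with wild-type pool 3, at 0.023. Whether replicate numbers pair the pools is therefore not settled here. With the replicate number as a block the count at an unadjusted p under 0.05 was 252, and 0 members were called.

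Some median log2 differences moved by more than the spread between pools, and the causes were not tested. Over all members the median was -0.037 with quantile normalization and -0.030 to 0.040 without single pools, and for neuron genes -0.034 to 0.046 without single pools. For neural crest genes it was 0.048 with log2 of value plus 1, 0.13 with the most variable probe set, 0.036 with array weights and 0.025 to 0.13 without single pools. For floor plate genes it was -0.044 with array weights, 0.031 as a mean and -0.029 to 0.066 without single pools. For Notch-linked genes the mean was -0.13. Without single pools it was -0.38 to -0.15 for tail bud genes and -0.11 to 0.011 for surface ectoderm genes. Smaller than that spread, but with a changed sign or size, were medians of -0.014 to 0.062 for progenitor genes and -0.033 to 0.047 for proneural genes without single pools, and -0.084 for tail bud genes with array weights. The small number of arrays limits every value, and signal over background is unknown.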
